A study of Mus musculus with 3 samples.

Results

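The genes of 34 extracellular proteases and their inhibitors were followed through the cell types of the mouse flexor digitorum longus (FDL) tendon. The set holds 17 matrix metalloproteinases (MMPs), 12 ADAMTS proteases, the 4 tissue inhibitors of metalloproteinases (TIMPs) and *Reck*. They were found by gene symbol in the deposited table of 32285 genes, where all 34 were present. The data are single-cell RNA sequencing (scRNAseq) counts of unique molecular identifiers (UMIs, each standing for 1 captured RNA molecule) from 3 libraries, each made from 16 pooled tendons of both sexes. The study asked how loss of Scleraxis-lineage cells in young mice compares with natural ageing.

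All mice were of the C57BL/6J strain. The 6 M WT mice (WT below) were Scx-Cre-; DTR F/+, and the 6 M DTR mice (DTR below) were Scx-Cre+; DTR F/+. Both thus carried the diphtheria toxin (DT) receptor allele and received 5 DT injections into the hind paw, but in DTR alone the *Scx* promoter drives a Cre recombinase that switches the receptor on in cells that have expressed *Scx* at any time, so that the toxin kills them. Injections were given at 3 months and tendons taken at 6 months of age, although the age label of both libraries reads 3 months. The 21 M B6 mice (B6 below) were C57/Bl6 animals of 21 months without DT, so that age, DT and the receptor allele cannot be told apart between B6 and WT. Tendons of WT were digested in collagenase for 120 min and the others for 90 min, which cannot be told apart from the groups either.

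MMPs are zinc endopeptidases that are made as inactive proenzymes and, once activated, cut collagens and other matrix proteins. MMP14 sits in the cell membrane and activates proMMP2 with the help of TIMP2, while MMP3 activates several secreted proMMPs. Several ADAMTS proteases cut proteoglycans such as versican and aggrecan, and others act on microfibrils. TIMPs bind and block active MMPs, TIMP3 also blocks ADAMTS enzymes and stays bound to the matrix, and RECK is a membrane-anchored inhibitor. Tendon consists largely of fibrillar collagen, whose native helix only a few collagenases can cut.

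*Mmp12* and *Mmp13* UMIs, which came from few tenocyte-gated cells, were more frequent in those with *Mmp3* than in those without. *Mmp3*, *Mmp12* and *Mmp13* lie close together in the genome. In the RefSeq gene order the run reads *Mmp13*, *Mmp12*, *Mmp1b*, *Mmp3*, *Mmp1a*, *Mmp10*, then after 1 predicted gene *Mmp8*, *Mmp27* and *Mmp20*. RefSeq promoter windows on build GRCm38.p6 were found for 21 of the 34 genes, and the 250 bases before each transcription start were searched for the AP-1 motif TGANTCA, a pattern that reads the same on both strands. It was present in 4 of these 21 genes, all of that run, and in 7.82% of the 27025 genes searched the same way. *Mmp8* and *Mmp27* of the run were searched as well and had no match. The 13 genes without a window, among them *Mmp2*, *Mmp9*, *Mmp19*, *Adamts4*, *Adamts5* and *Adamts6*, were not searched. The 100 bases before each start are shown for these 4 genes because they hold the motif near the start, and for *Timp1* as a gene that was higher in the same cells and has no match in its window. Capitals mark the motif.
Mmp3, chr9:7445722-7445821 (+): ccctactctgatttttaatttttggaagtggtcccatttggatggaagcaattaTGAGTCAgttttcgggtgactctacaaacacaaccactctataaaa
Mmp12, chr9:7347274-7347373 (+): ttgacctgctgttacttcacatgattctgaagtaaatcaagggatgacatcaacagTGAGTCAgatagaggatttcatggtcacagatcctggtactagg
Mmp13, chr9:7272414-7272513 (+): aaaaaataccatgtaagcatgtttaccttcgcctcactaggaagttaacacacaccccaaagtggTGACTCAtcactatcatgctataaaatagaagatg
Mmp10, chr9:7502242-7502341 (+): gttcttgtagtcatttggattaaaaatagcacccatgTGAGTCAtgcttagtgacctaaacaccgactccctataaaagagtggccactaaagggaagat
Timp1, chrX:20870066-20870165 (+): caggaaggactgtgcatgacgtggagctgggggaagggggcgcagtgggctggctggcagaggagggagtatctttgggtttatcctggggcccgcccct
The motif began 46 bases before the start in *Mmp3*, 44 in *Mmp12*, 35 in *Mmp13* and 63 in *Mmp10*. *Mmp12* has another listed start, whose window holds no match. A match describes these letters and does not show that a factor binds there.

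The libraries held 12273 to 16099 barcodes and 92707026 to 148149903 UMIs, and 4798 to 8357 cells passed the filters with a median of 12328 to 13008 UMIs. Each pair of libraries shared 61 to 76 barcodes, 13 to 15 of them kept as cells in both. Cell classes were set by marker genes, none of which is in the protease set. They gave 4927 tenocyte-gated cells in WT, 2587 in DTR and 766 in B6, 996, 888 and 2238 epitenon-gated cells, and 510, 1030 and 454 macrophage-gated cells. Smaller classes were endothelial (150, 149 and 113), mural (132, 175 and 31) and Schwann (66, 66 and 42 cells). The 10 leading genes of each class held at least 1 of its own markers and none of another class. Since the classes were gated on these markers, this is no separate check of their identity. The median share of mitochondrial UMIs in tenocyte-gated cells was 2.78% in WT, 2.85% in DTR and 5.56% in B6. The DT receptor and Cre transcripts were not analysed here.

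UMIs were summed over the cells of a class in each library and scaled to CPM, the UMIs of a gene per 1000000 UMIs of those cells. With 1 library per group no difference was tested, and the 95% intervals in parentheses (exact Poisson for a level, exact binomial for a ratio or a share) cover counting error only. The counts come from 3′ ends, so levels are compared between cells and libraries within a gene, not between genes.

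Levels of these genes differed between the cell classes. The gelatinase gene *Mmp2* was found mainly in tenocyte-gated, epitenon-gated and Schwann-gated cells, at 67.3 to 664 CPM over these classes and the 3 libraries, and was at 5.10 to 8.36 CPM in macrophage-gated cells. *Mmp3*, a stromelysin gene, was highest in tenocyte-gated cells among the gated classes of each library. *Timp2* reached 1584 to 2333 CPM in tenocyte-gated cells and was at 70.0 CPM or more in each of the 7 largest classes. *Timp3*, for the matrix-bound inhibitor, was high in mural-gated cells (839.7 to 2874 CPM), Schwann-gated cells (944 to 1304 CPM) and tenocyte-gated cells (826 to 910.0 CPM), and lay between 8.04 and 13.05 CPM in macrophage-gated cells. The proteoglycanase genes *Adamts1*, *Adamts4* and *Adamts9* had their highest class level in mural-gated cells in all 3 libraries.

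**Figure D1:**
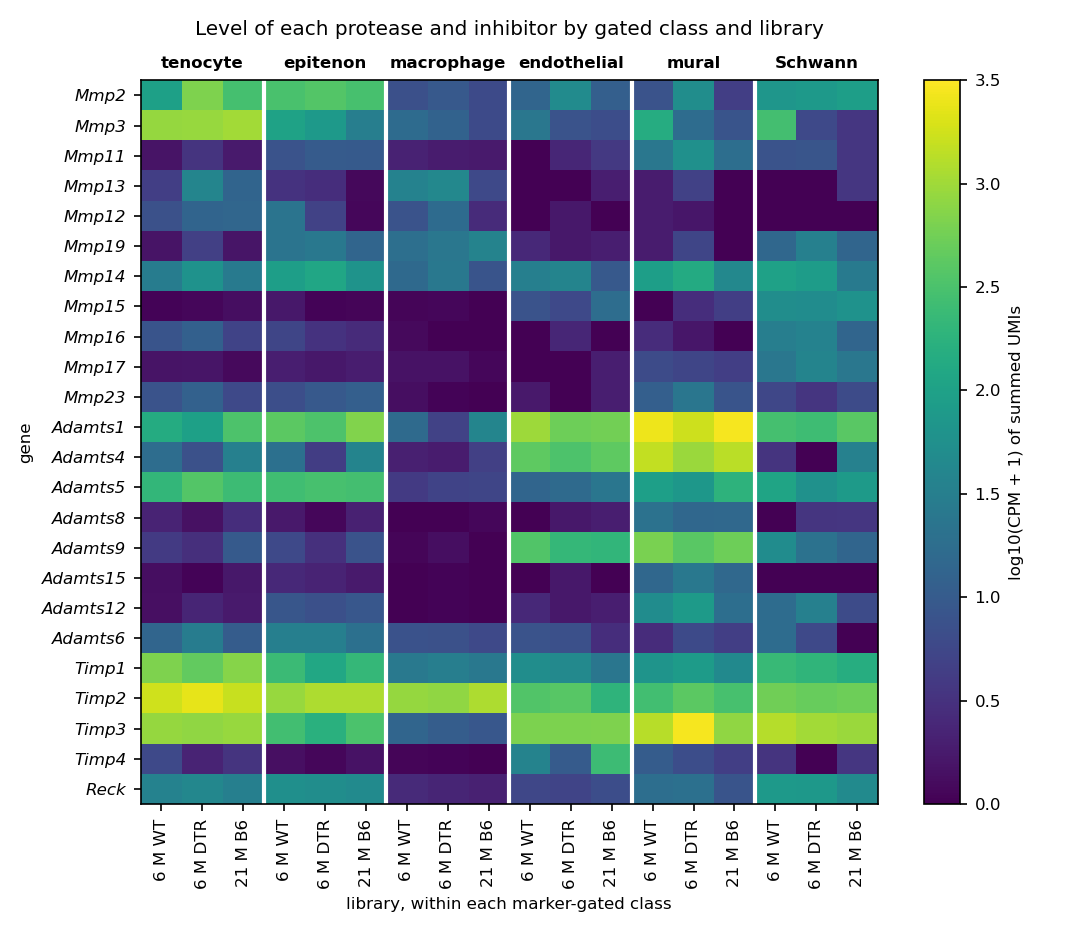
Heat map of the level of 24 of the 34 genes (rows) in 6 marker-gated classes, each with a column for 6 M WT, for 6 M DTR and for 21 M B6; colour is log10(CPM + 1) of UMIs summed over the cells. *Adamts4* and *Adamts9* stand out in the endothelial and mural columns, *Mmp3* in the tenocyte columns and *Timp4* in the endothelial column of B6, and colours should be compared along a row.

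A group of 6 genes, *Mmp10*, *Mmp24*, *Mmp27*, *Mmp28*, *Adamts16* and *Adamts17*, stayed under 20 CPM in every class and library. *Mmp10*, the other stromelysin gene of the *Mmp3* run, had 27, 54 and 0 UMIs over all kept cells of WT, DTR and B6. The collagenase gene *Mmp8* and the gelatinase gene *Mmp9*, both known from neutrophils, passed 20 CPM only in neutrophil-gated cells, of which there were 26, 1 and 2. For *Mmp8* this was 2 UMIs in the 1 cell of DTR and 4 UMIs in the 2 of B6, while the 26 cells of WT held 2 UMIs, or 12.5 CPM. *Mmp9* had 24 UMIs in the 26 cells of WT, or 149.7 CPM (95.9 to 223). Of the UMIs in all kept cells of WT, DTR and B6, neutrophil-gated cells held 6.67%, 22.2% and 80% for *Mmp8* and 54.5%, 11.1% and 75% for *Mmp9*. Most *Mmp8* UMIs of WT and DTR thus lay outside this class. *Adamts7*, whose product cleaves the tendon matrix protein COMP, passed 20 CPM only in the same 26 cells, where 1 cell held its 6 UMIs.

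In tenocyte-gated cells 17 of the 34 genes reached 5 CPM in WT or DTR. Of these, 4 were at least 2-fold higher in DTR, as were 3.01% of 9383 genes in all, and 1 was at least 2-fold lower, as were 1.73% of all genes. The median log2 ratio was 0.42 over the 17 genes and 0.04 over all genes. In B6 against WT, 5 of 17 were at least 2-fold higher (3.46% of 9167 genes) and 0 lower (3.61%), with a median log2 ratio of 0.12 over the 17 and −0.28 over all genes. Both comparisons use the same WT library, so they are not independent.

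*Mmp2*, whose product cuts denatured collagen and basement membrane, had the largest ratio among the genes over 20 CPM in WT. Its level in tenocyte-gated cells was 96.9 CPM (94.5 to 99.3) in WT, 664 CPM (655 to 673) in DTR and 292 CPM (281 to 304) in B6. The ratio to WT was 6.85 (6.67 to 7.05) in DTR and 3.02 (2.88 to 3.16) in B6. After every cell was thinned to 2000 UMIs, 13.4% (12.5 to 14.4) of tenocyte-gated cells in WT held an *Mmp2* UMI, 52.5% (50.5 to 54.4) in DTR and 32.8% (29.5 to 36.2) in B6. In macrophage-gated cells, where the *Mmp2* level was low, 1.18%, 1.55% and 1.32% were positive, well below the tenocyte shares. Whether these positive macrophage-gated cells reflect RNA from other cells was not tested. Median depths were 12905, 12414 and 11036 UMIs in tenocyte-gated and 16152, 12998 and 13378 UMIs in macrophage-gated cells. Without thinning, 37.3%, 78.2% and 66.3% of tenocyte-gated cells were positive.

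The *Mmp2* level differed between clusters of the tenocyte class. Cells were clustered on other genes, with all 34 left out and the libraries not aligned to one another, and 4 clusters held nearly all tenocyte-gated cells. They are called by number: cluster 1 (leading genes *Ccl5*, *Saa2*, *Gbp6*), cluster 2 (*Slurp1*, *Serpinb7*, *Cytl1*), cluster 4 (*Mstn*, *Fbln7*, *Crispld1*) and cluster 5 (*Hspa1a*, *Hspa1b*, *Ccn1*). Cluster 4 held 3.15% (2.68 to 3.67) of tenocyte-gated cells in WT, 54.6% (52.6 to 56.5) in DTR and 11.4% (9.20 to 13.8) in B6. Since DTR supplies most of its cells, it may mark that library rather than a cell type.

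*Mmp2* was highest in cluster 4 in every library, at 740.5, 1095 and 805 CPM in WT, DTR and B6. Cluster 1 had 94.2, 298 and 232 CPM, cluster 2 had 14.4, 69.4 and 66.3 CPM, and cluster 5 had 128, 309.6 and 233 CPM. In each of the 4 clusters WT was thus the lowest library. When the WT clusters were weighted to the cluster mix of DTR, the WT level became 419.9 CPM and the ratio 1.58 in place of 7.04. With the mix of B6 the ratio was 1.60 in place of 2.98. This weighting was chosen after the levels had been seen, and no interval was computed for it. With the DTR mix it gives the most weight to cluster 4, which held 155 cells in WT and 1412 in DTR. As cluster 4 may mark the DTR library, matching on it may also remove part of a difference between the libraries. The matched ratios here and below are thus given beside the others and do not replace them.

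**Figure D2:**
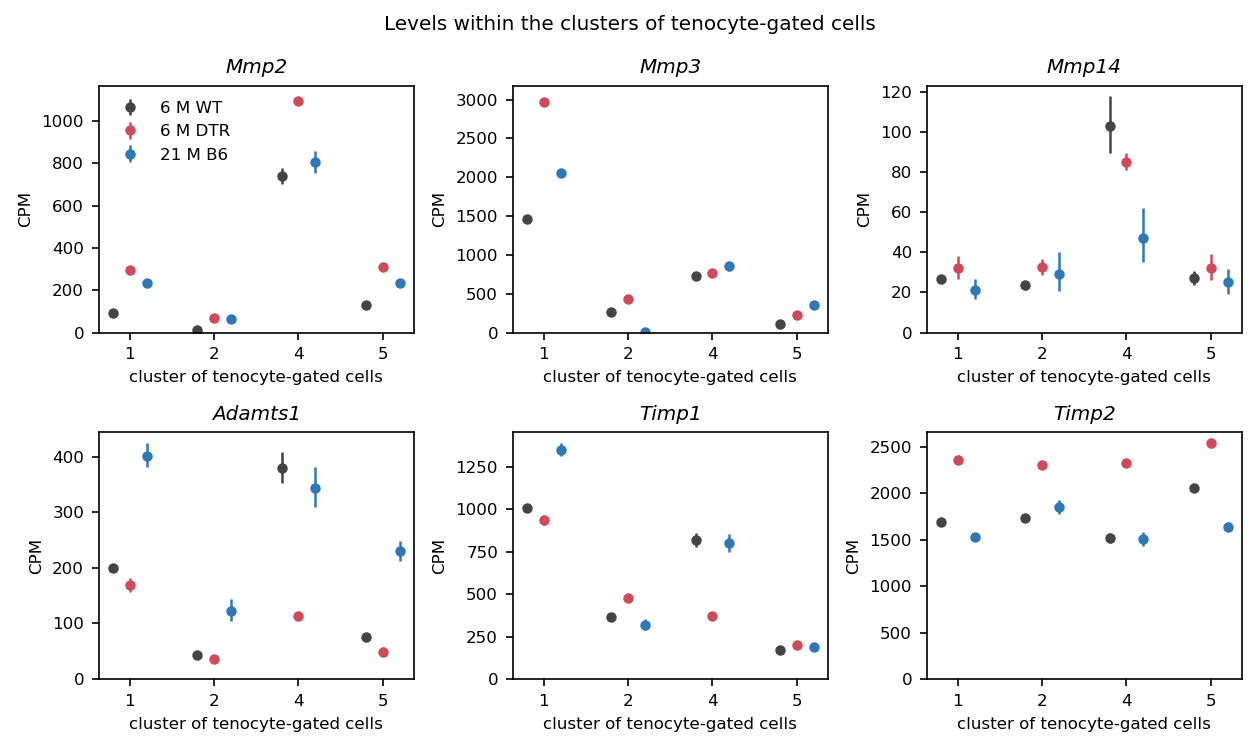
CPM of 6 genes in clusters 1, 2, 4 and 5 of the tenocyte-gated cells; points are libraries and bars exact Poisson 95% intervals, which cover counting error only. *Mmp2* is highest in cluster 4 in all libraries (740.5 to 1095 CPM), *Mmp3* in cluster 1 (1458 to 2969.6 CPM), and *Timp2* differs little between clusters.

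*Mmp14*, for the membrane activator of proMMP2, was at 28.9 CPM (27.6 to 30.2) in WT, 60.3 CPM (57.8 to 63.0) in DTR and 26.3 CPM (23.1 to 29.9) in B6. The DTR ratio was 2.09 (1.96 to 2.23), which no single cluster reached. Clusters 1, 2 and 5 held 26.6, 23.5 and 27.0 CPM in WT and 32.2, 32.5 and 32.3 CPM in DTR. In cluster 4 *Mmp14* was at 103 CPM in WT, 85.1 CPM in DTR and 47.0 CPM in B6, and with the cluster mix matched the DTR ratio was 0.911. For B6 the ratio was 0.912 (0.793 to 1.04), and its direction turned under TMM scaling (edgeR's trimmed mean of M-values), where the log2 ratio was 0.10.

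*Timp2*, for the inhibitor that takes part in proMMP2 activation, was at 1748 CPM in WT, 2333 CPM in DTR and 1584 CPM in B6. Its ratio in DTR was 1.33 (1.32 to 1.35), and 1.43 with the cluster mix matched. It was found in nearly every cell, with 94.4%, 95.9% and 91.4% of thinned tenocyte-gated cells positive. The B6 ratio of 0.906 (0.890 to 0.922) turned to a log2 ratio of 0.09 under TMM scaling. *Reck* was at 34.6, 40.8 and 31.9 CPM, with ratios of 1.18 (1.10 to 1.26) in DTR and 0.922 (0.812 to 1.04) in B6, the latter also turning under TMM scaling, to a log2 ratio of 0.12. With the cluster mix matched the *Reck* ratio in DTR turned as well, to 0.934.

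*Mmp3* was nearly level over the class at the cluster mix each library had, and very uneven within it. Tenocyte-gated cells had 876 CPM (869 to 883) in WT, 900.1 CPM (890.0 to 910.2) in DTR and 1023 CPM (1002 to 1044) in B6, ratios of 1.03 (1.01 to 1.04) and 1.17 (1.14 to 1.19). The first changed direction in 3 of 12 other ways of computing it, among them TMM scaling with a log2 ratio of −0.07. The second did so in 2 of 12, with a ratio of 0.875 with no upper limit on genes per cell. Kept cells of all classes held 74174 of 124789 *Mmp3* UMIs in WT, 40689 of 49321 in DTR and 12080 of 13470 in B6, so the filter removed the largest part in WT. With the cluster mix matched the ratio was 1.39 in DTR and 1.39 in B6. Yet only 15.6%, 18.9% and 19.5% of thinned cells held an *Mmp3* UMI, and the 10% of cells with the most held 95.8%, 92.5% and 89.6% of all *Mmp3* UMIs. In macrophage-gated cells 3.14%, 1.85% and 0.661% were positive. The level was highest in cluster 1, at 1458 CPM in WT, 2969.6 CPM in DTR and 2056 CPM in B6. Cluster 2 had 267, 438 and 13.1 CPM, the last from 17 UMIs in 110 cells.

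The libraries also differed in the sex of their cells, called from *Xist* and Y-linked UMIs. Female-called cells numbered 3049 and male-called cells 1151 among tenocyte-gated cells of WT, against 842 and 1241 in DTR. *Mmp3* was at 1015 CPM in female and 668 CPM in male tenocyte-gated cells of WT, and at 614 and 1038 CPM in DTR, so that the ratio was 0.605 (0.590 to 0.621) in female and 1.55 (1.51 to 1.59) in male cells. *Mmp2* had the same direction in both, with DTR ratios of 4.98 (4.77 to 5.20) in female and 6.97 (6.63 to 7.33) in male cells, and B6 ratios of 3.49 and 2.51. Cluster 4 held 2.26% of female and 5.30% of male tenocyte-gated cells in WT, 39.2% and 65.4% in DTR, and 11.4% and 10.3% in B6. The number of animals of each sex in a pool was not analysed here, and the difference between the sexes was not tested.

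*Mmp13*, for the main interstitial collagenase of the mouse, was at 3.45 CPM (3.02 to 3.93) in WT, 37.8 CPM (35.8 to 39.9) in DTR and 12.4 CPM (10.2 to 15.0) in B6. These levels came from few cells. UMIs were found in 42, 125 and 5 tenocyte-gated cells, and 1 cell held 86.6% of the 112 UMIs of B6, 37.6% of those of WT and 8.77% of those of DTR. The DTR ratio of 11.0 (9.51 to 12.7) was 11.9 with the cluster mix matched, 5.04 in female cells and 88.4 in male cells, where WT had 8 UMIs. The B6 ratio of 3.60 (2.85 to 4.54) rests on that 1 cell.

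*Mmp12*, for the elastase best known from macrophages, was found in 48, 32 and 7 tenocyte-gated cells, at 6.30, 12.4 and 13.2 CPM. The B6 ratio of 2.097 (1.70 to 2.58) rests on few cells, of which 1 held 34.5% of the UMIs. Tenocyte-gated cells with at least 5 *Mmp12* or *Mmp13* UMIs held a median of 5 or more of the 6 tenocyte markers, and a median of 0.5 macrophage markers or fewer. The gate asked for at least 4 of the 6 tenocyte markers and fewer than 4 macrophage markers, so these medians were largely set in advance. At least 2 macrophage markers were seen in 2 of 14 such *Mmp12* cells in WT and in 0 of 14 in DTR, beside 2.42% and 3.90% of the whole class. For *Mmp13* they were seen in 1 of 5 such cells in WT and in 0 of 42 in DTR. Median depth was 17421, 20865.5 and 15031 UMIs in such *Mmp12* cells of WT, DTR and B6, and 13645, 14958 and 17645 UMIs in such *Mmp13* cells. All were above the 12905, 12414 and 11036 UMIs of the class. Whether some of these cells were doublets was not tested.

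*Adamts1* and *Adamts4* went the opposite way to *Mmp2* in DTR. *Adamts1*, a versicanase gene, was at 143 CPM (139.7 to 146) in WT, 97.9 CPM (94.6 to 101) in DTR and 331 CPM (319.5 to 343) in B6. The ratio was 0.687 (0.660 to 0.714) in DTR and 2.32 (2.23 to 2.42) in B6. Within cluster 4 WT had 379.6 CPM and DTR 113 CPM. With the mix matched the *Adamts1* ratio was 0.386 in DTR and 1.86 in B6. *Adamts4*, an aggrecanase gene, was at 16.7 CPM (15.7 to 17.7) in WT, 6.28 CPM (5.47 to 7.18) in DTR and 32.2 CPM (28.6 to 36.1) in B6, with ratios of 0.376 (0.323 to 0.436) and 1.93 (1.69 to 2.19). In male cells the B6 log2 ratio was −0.28.

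*Adamts5*, the other main aggrecanase gene, was at 205 CPM in WT, 361 CPM in DTR and 251 CPM in B6. Its ratio was 1.76 (1.72 to 1.81) in DTR, 1.62 with the mix matched, and 1.23 (1.17 to 1.28) in B6. *Adamts9* was at 2.92, 1.94 and 8.66 CPM, a B6 ratio of 2.96 (2.25 to 3.87) from 78 UMIs. *Adamts6*, whose product acts on fibrillin microfibrils, was at 12.8 CPM (11.98 to 13.7) in WT, 28.6 CPM (26.8 to 30.4) in DTR and 9.55 CPM (7.64 to 11.8) in B6, a ratio of 2.23 (2.03 to 2.44) in DTR and 0.744 (0.589 to 0.930) in B6. With the mix matched the *Adamts6* ratio in DTR was 1.75.

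*Timp1*, for the inducible soluble inhibitor, was at 674 CPM in WT, 455 CPM in DTR and 730.4 CPM in B6. Its DTR ratio was 0.675 (0.663 to 0.688), and the largest difference was that of cluster 4, where WT had 819 CPM and DTR had 373 CPM. Clusters 1, 2 and 5 of DTR held 939, 476 and 199 CPM beside 1007, 366 and 173 CPM in WT. The B6 ratio was 1.08 (1.06 to 1.11). *Timp3* was at 869.6 CPM in WT, 826 CPM in DTR and 910.0 CPM in B6, with ratios of 0.949 (0.936 to 0.963) and 1.05 (1.02 to 1.07). With the cluster mix matched its DTR ratio turned to 1.23.

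Other genes stood beside these values in the same cells. Summed haemoglobin genes were at 1274, 4982 and 1340.3 CPM in tenocyte-gated cells, the 6 macrophage markers at 16.8, 27.1 and 21.3 CPM with none at 0, and the 6 epitenon markers at 954, 674 and 950.0 CPM in WT, DTR and B6. Their part in the protease levels was not tested.

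**Figure D3:**
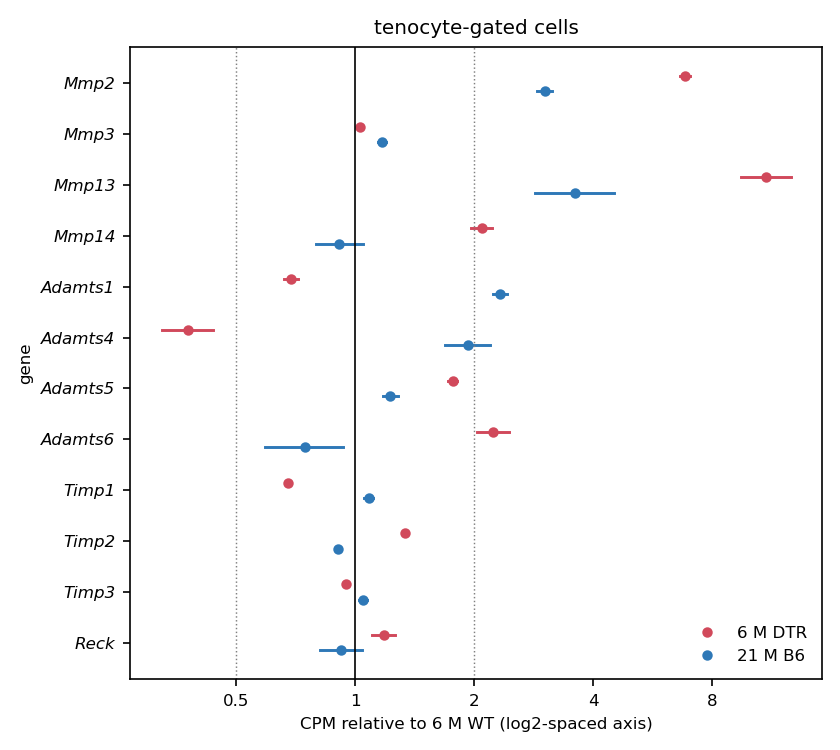
Ratio of CPM to 6 M WT in tenocyte-gated cells for the genes with at least 20 CPM in a library compared; bars are exact 95% intervals for counting error and dotted lines mark 2-fold. *Mmp2* lies above the upper line in DTR (6.85) and B6 (3.02), while *Adamts1* and *Adamts4* lie below 1 in DTR and above 1 in B6.

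Cells with *Mmp3* RNA also held other proteases. Tenocyte-gated cells thinned to 2000 UMIs were split into those with an *Mmp3* UMI (767, 489 and 149 in WT, DTR and B6) and those without (4160, 2098 and 617). *Timp1* was at 1233, 827 and 1279 CPM in cells with *Mmp3* and at 474, 307 and 539 CPM in cells without, ratios of 2.60 (2.46 to 2.75), 2.70 (2.47 to 2.95) and 2.37 (2.09 to 2.69). *Mmp12* was at 28.7 CPM in cells with and 1.202 CPM in cells without *Mmp3* in WT, and at 48.1 and 1.67 CPM in DTR. All 11 *Mmp12* UMIs of thinned B6 tenocyte-gated cells were in cells with *Mmp3*.

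*Mmp13* was higher beside *Mmp3* as well, with ratios of 3.53 (1.61 to 7.45) in WT and 9.95 (7.41 to 13.5) in DTR. In WT these were 13 UMIs in cells with *Mmp3* and 20 in cells without, and in B6 they were 6 and 3. As given above, a single cell held much of the *Mmp13* of WT and most of that of B6. The intervals take UMIs as independent, so these values may rest on few cells. *Adamts1* had ratios of 2.096 (1.85 to 2.36), 2.85 (2.35 to 3.45) and 1.73 (1.41 to 2.11), and *Mmp2* of 1.58, 1.26 and 1.54. Not every gene followed: *Timp2* had ratios of 0.913, 1.07 and 0.895, *Timp3* of 0.791, 0.728 and 1.02, and *Adamts6* of 0.299 (0.118 to 0.634), 0.448 (0.239 to 0.779) and 1.13 (0.202 to 4.28).

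Among genes outside the set, chosen after their values had been seen, the acute-phase gene *Saa3* (ratios of 3.72, 5.25 and 2.14), the chemokine gene *Ccl2* (2.48, 3.27 and 2.04), *Il6* (2.72, 3.59 and 1.81) and the plasminogen activator gene *Plau* (2.05, 3.26 and 1.88) were higher in cells with *Mmp3*. The split by *Mmp3* was made over all tenocyte-gated cells and not within clusters. *Mmp3* was highest in cluster 1, whose leading genes include *Saa2*, *Saa1* and *Ifi205*. The part of the clusters in the ratios of cells with *Mmp3* to cells without was not tested. Cells of 1 library share their preparation, so these ratios describe the 3 libraries and are not replicated.

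**Figure D4:**
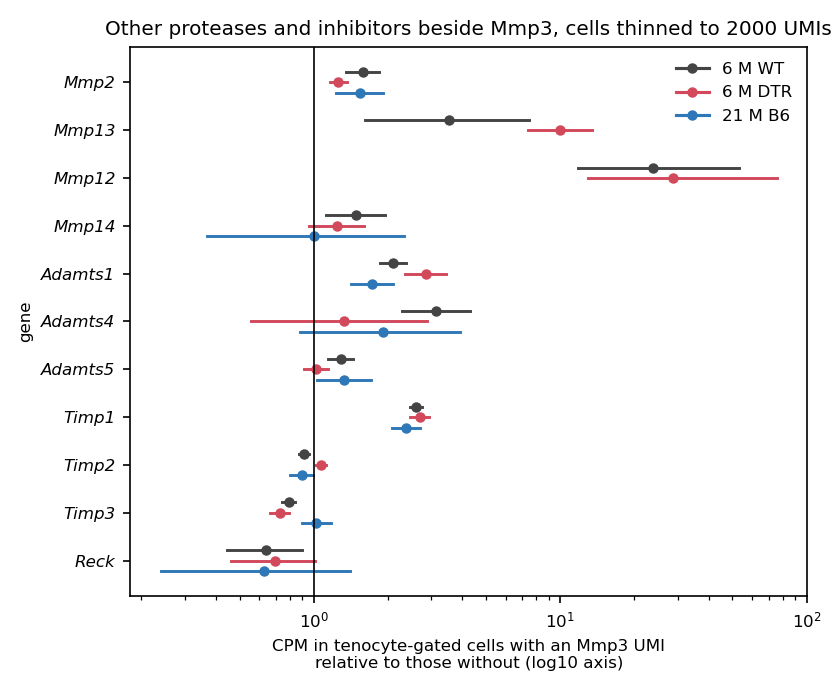
Ratio of CPM in tenocyte-gated cells with an *Mmp3* UMI to CPM in those without, per library, on a log10 axis with exact 95% intervals; *Mmp12* and *Mmp13* of 21 M B6 are not drawn because of their few UMIs. *Timp1* lies between 2.37 and 2.70 in the 3 libraries and *Mmp12* at 23.9 and 28.8 in the young libraries, while *Timp2* lies close to 1.

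In epitenon-gated cells, fibroblasts named for the tendon surface layer, 18 of the 34 genes reached 5 CPM in each comparison. In DTR, 0 were at least 2-fold higher (0.574% of 9585 genes) and 3 lower (1.71%), with a median log2 ratio of −0.18 over the 18 and −0.00186 over all genes. In B6, 0 were higher (1.97% of 9510 genes) and 2 lower (2.17%), with medians of 0.00132 and −0.27. The scale of B6 bears on these counts: with TMM scaling, 3 genes were at least 2-fold higher there. That scaling moved the median log2 ratio of all genes to 0.03. The share of all genes past 2-fold under it is not given here, so the 3 cannot be set beside it.

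*Mmp2* in epitenon-gated cells was at 311 CPM in WT, 363 CPM in DTR and 298 CPM in B6. Ratios were 1.17 (1.12 to 1.21) and 0.958 (0.926 to 0.991), the latter turning to a log2 ratio of 0.23 under TMM scaling. The large ratios of the tenocyte class were thus not seen in this class. Within it, *Mmp2* was low in cluster 10 (leading genes *Clic5*, *Col22a1*, *Htra4*), at 23.6, 29.5 and 8.44 CPM. *Clic5* and *Tspan15*, both leading genes of cluster 10, were listed as markers of synovial lining, a class that was not gated. *Mmp2* was at 278, 349.7 and 251 CPM in cluster 0, the largest epitenon cluster, with 68.3%, 81.0% and 50.8% of epitenon-gated cells. The first leading genes of cluster 0 were the haemoglobin genes *Hbb-bt*, *Hbb-bs*, *Hba-a2* and *Hba-a1*.

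*Adamts4* stood out in epitenon-gated cells, with 18.8 CPM (16.8 to 21.1) in WT, 3.38 CPM (2.49 to 4.48) in DTR and 36.7 CPM (34.7 to 38.8) in B6. It was found in 85, 24 and 275 cells, and its ratios were 0.180 (0.130 to 0.244) and 1.95 (1.72 to 2.22). It was highest in cluster 6 (*Saa3*, *Ifi205*, *Ptx3*), with 89.9, 29.7 and 88.5 CPM. This cluster made up 16.5% of epitenon-gated cells in WT, 7.77% in DTR and 36.0% in B6. With the mix matched the B6 ratio was 1.00 in place of 1.94, and the DTR ratio 0.349 in place of 0.183.

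*Adamts1* was at 411, 329.6 and 689 CPM in epitenon-gated cells, with ratios of 0.801 (0.772 to 0.832) and 1.68 (1.63 to 1.72). In cluster 6 it reached 936, 1175 and 1245 CPM, and with the mix matched the DTR ratio was 0.936 and the B6 ratio 1.26. *Adamts5* was close to level, at 266, 303 and 288 CPM, ratios of 1.14 (1.09 to 1.19) and 1.08 (1.04 to 1.12). *Adamts6* was at 31.7, 31.9 and 18.4 CPM, a ratio of 0.580 (0.515 to 0.653) in B6, which was 0.755 with the mix matched. *Adamts9*, past 2-fold lower in DTR like *Adamts4* and *Mmp12*, had 2.04 CPM there and 5.01 CPM in WT, from 29 and 80 UMIs. Its ratio was 0.760 in male cells, and 0.610 in place of 0.463 with the mix matched, neither past 2-fold.

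*Mmp3* in epitenon-gated cells was at 102 CPM (97.4 to 107) in WT, 74.1 CPM (69.7 to 78.7) in DTR and 30.6 CPM (28.8 to 32.6) in B6. A single cell held 28.0% of the UMIs of WT, 12.8% in DTR and 31.0% in B6. The B6 ratio of 0.300 (0.277 to 0.324) was 0.141 with the mix matched, and cluster 6 had 468, 497 and 62.4 CPM. The DTR ratio turned to 1.07 in place of 0.654 with the mix matched, and to 1.60 with cells of several gates included. The 6 tenocyte markers summed to 327, 236 and 92.0 CPM in epitenon-gated cells, highest in WT and lowest in B6 like *Mmp3*, and their part in its ratio was not tested. For *Mmp12* the 21.5, 3.88 and 0.148 CPM came from 344, 55 and 5 UMIs, of which 1 cell of WT held 60.2%, so its ratios rest on few cells.

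*Mmp14* was at 89.8 CPM in WT, 117 CPM in DTR and 60.8 CPM in B6, ratios of 1.30 (1.21 to 1.395) and 0.677 (0.633 to 0.725). *Mmp19*, for a secreted MMP, was at 21.5, 24.5 and 13.02 CPM, ratios of 1.14 (0.979 to 1.33) and 0.607 (0.526 to 0.701). Both were lower in B6 under every setting tried, TMM scaling included.

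Of the inhibitors in epitenon-gated cells, *Timp1* was at 238 CPM in WT, 123 CPM in DTR and 212 CPM in B6, ratios of 0.517 (0.488 to 0.547) and 0.889 (0.855 to 0.925). The latter turned to a log2 ratio of 0.12 under TMM scaling, and with the mix matched it was 0.646 in place of 0.882. *Timp3* was at 276, 165 and 322 CPM, ratios of 0.599 (0.569 to 0.630) and 1.17 (1.13 to 1.21). *Timp3* was highest in the small cluster 7 (*Sfrp5*, *Reln*), at 878, 738 and 921 CPM. *Timp2* was at 908, 1175 and 1165 CPM, ratios of 1.29 (1.27 to 1.32) and 1.28 (1.26 to 1.31). *Reck* was at 53.6, 51.7 and 46.0 CPM. In DTR epitenon-gated cells *Timp1* and *Timp3* were thus lower and *Timp2* higher than in WT, the same directions under all settings tried.

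In macrophage-gated cells 12 of the 34 genes reached 5 CPM. In DTR 1 was at least 2-fold higher (1.25% of 8993 genes) and 1 lower (1.29%), and in B6 2 were higher (3.91% of 9058 genes) and 4 lower (3.19%). The median log2 ratios were 0.28 and −0.34 over the 12 genes, and −0.02 and −0.08 over all genes. *Timp2* was the most widely found inhibitor gene in this class, at 895 CPM (875 to 915) in WT, 835 CPM (819.9 to 850.0) in DTR and 1178 CPM (1152 to 1205) in B6. Between 74.6% and 82.6% of thinned cells held it, and the ratios were 0.933 (0.906 to 0.960) and 1.32 (1.28 to 1.36).

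In macrophage-gated cells *Mmp13* was at 34.9 CPM (31.1 to 39.1) in WT, 42.4 CPM (39.1 to 45.9) in DTR and 4.95 CPM (3.38 to 6.98) in B6. It was found in 28, 64 and 19 cells, and 1 cell held 39.1% of the UMIs of WT. The osteoclast markers summed to 154, 97.6 and 31.4 CPM in macrophage-gated cells of WT, DTR and B6, and their part in the B6 ratio of 0.142 (0.0952 to 0.204) was not tested. In female cells that ratio was 0.0364 (0.0145 to 0.0760) and in male cells 0.906 (0.461 to 1.76). *Mmp12* had 59, 224 and 11 UMIs in 11, 28 and 2 cells, and was the 1 gene past 2-fold higher in DTR, with a ratio of 1.22 once cells were thinned to 2000 UMIs.

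*Mmp19* in macrophage-gated cells was at 17.9, 23.5 and 36.0 CPM, found in 70, 133 and 103 cells, with a ratio of 2.02 (1.64 to 2.49) in B6, which was 1.17 once cells were thinned to 2000 UMIs. *Mmp14* was at 14.8, 24.0 and 7.11 CPM, ratios of 1.62 (1.32 to 2.005) and 0.480 (0.335 to 0.678). Its DTR ratio was 0.808 (0.599 to 1.09) in female cells and 7.60 (3.79 to 17.9) in male cells, and its B6 ratio 1.01 (0.313 to 3.20) in male cells. *Adamts1* was at 15.2, 3.86 and 38.0 CPM, so that it was lower in DTR, 0.255 (0.182 to 0.352), and higher in B6, 2.51 (2.02 to 3.13). Its DTR ratio was 0.714, no longer past 2-fold, with no upper limit on genes per cell, and 0.152 in female cells. Genes of the stromal classes were counted in these cells too: *Mmp3* was at 16.0, 11.7 and 5.10 CPM and *Timp1* at 25.2, 30.6 and 24.0 CPM. The 6 tenocyte markers summed to 79.8, 64.7 and 41.3 CPM and the 6 epitenon markers to 22.3, 26.7 and 23.2 CPM in macrophage-gated cells, and their part in the *Adamts1* values was not tested.

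**Figure D5:**
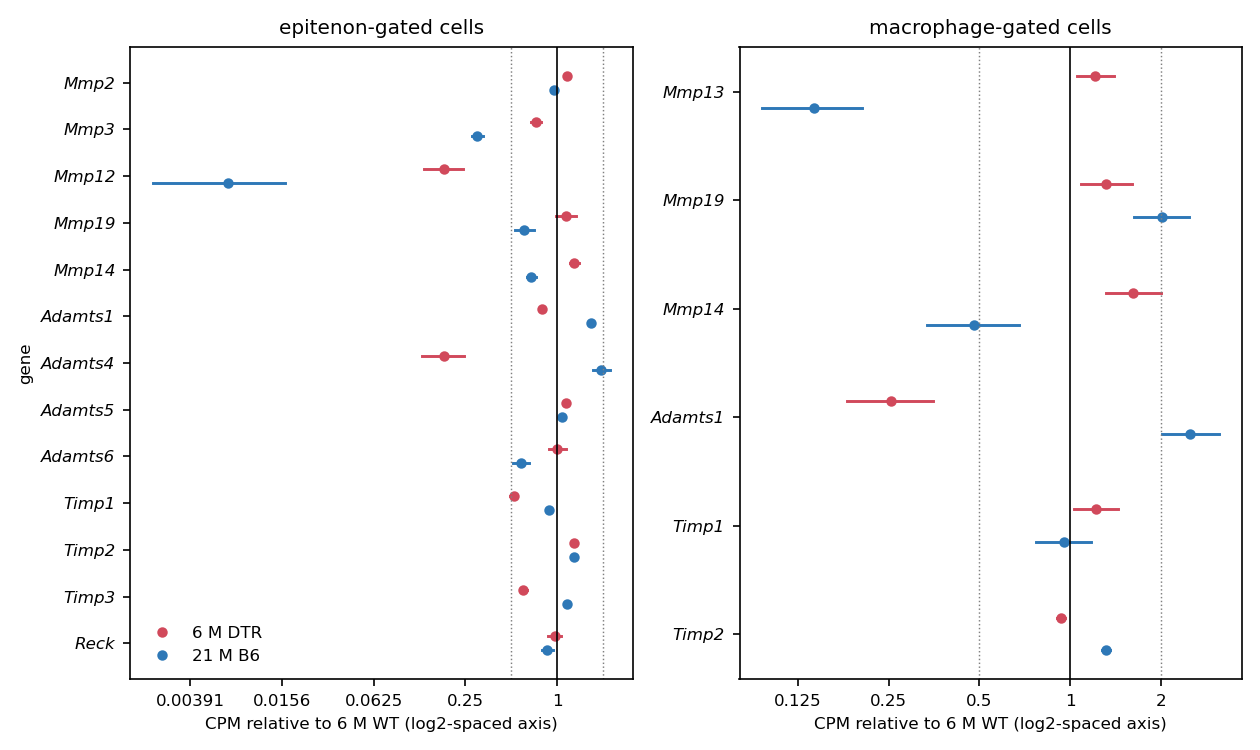
Ratio of CPM to 6 M WT in epitenon-gated (left) and macrophage-gated cells (right) for genes with at least 20 CPM in a library compared; bars are exact 95% intervals for counting error and dotted lines mark 2-fold. *Adamts4* of epitenon-gated cells lies at 0.180 in DTR and 1.95 in B6, and *Adamts1* of macrophage-gated cells at 0.255 and 2.51, of which the first was 0.714 with no upper limit on genes per cell.

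Mural cells carried the highest levels of 3 proteoglycanase genes. In mural-gated cells *Adamts1* was at 2561 CPM (2469 to 2655) in WT, 1693 CPM (1629 to 1758) in DTR and 2827 CPM (2636 to 3029) in B6. *Adamts4* was at 1532, 938 and 1368 CPM and *Adamts9* at 629, 399 and 528 CPM. Each was lower in DTR, with ratios of 0.661 (0.627 to 0.697), 0.612 (0.571 to 0.656) and 0.634 (0.569 to 0.706). No other setting, split by sex or matched cluster mix was run for mural-gated or endothelial-gated cells. Clusters 11 and 15, whose gated cells were mostly mural, held 92, 161 and 15 and 74, 52 and 35 cells of WT, DTR and B6. The part of this mix in the mural ratios was not tested. In endothelial-gated cells *Adamts1* was at 980.3, 537 and 560.0 CPM, *Adamts4* at 423, 333 and 424 CPM and *Adamts9* at 353, 215 and 200.2 CPM, giving DTR ratios of 0.548 (0.500 to 0.599), 0.789 (0.697 to 0.893) and 0.609 (0.525 to 0.704).

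*Timp3* in mural-gated cells was at 1322 CPM (1256 to 1390.2) in WT, 2874 CPM (2791 to 2958) in DTR and 839.7 CPM (737 to 953) in B6, a ratio of 2.17 (2.05 to 2.31) in DTR. Endothelial-gated cells held 635, 652 and 660.1 CPM. *Mmp11*, a stromelysin gene, was at 23.5, 55.9 and 17.5 CPM in mural-gated cells, *Mmp14* at 90.6, 139 and 42.0 CPM, and *Adamts12*, whose product cleaves COMP, at 49.6, 80.5 and 17.5 CPM. *Adamts5* was at 93.2, 69.1 and 182 CPM. *Mmp3* reached 148 CPM in mural-gated cells of WT, but 1 cell held 83.5% of its UMIs, as 1 cell did in the Schwann (87.1%) and T cell classes (88.9%) of that library.

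The vessel classes are small, with 31 mural-gated cells in B6, and many genes of any kind passed 2-fold in them. Of 21 set genes in mural-gated cells, 5 were at least 2-fold higher in DTR (8.45% of 10300 genes) and 2 lower (5.49%). In B6 0 of 20 were higher (8.46% of 10029 genes) and 5 lower (16.7%). In endothelial-gated cells 1 of 15 was higher (3.96% of 9654 genes) and 3 lower (5.58%) in DTR, and 2 of 16 were higher (6.46% of 9734 genes) and 5 lower (11.1%) in B6. Summed haemoglobin genes stood at 63.6, 13479 and 42.0 CPM in mural-gated and 44.1, 2913 and 5035 CPM in endothelial-gated cells of WT, DTR and B6, and their part in these counts was not tested.

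*Timp4*, for the TIMP with the narrowest tissue range, had its highest level of the 6 mapped classes in endothelial-gated cells in each library. It was at 35.7 CPM (26.2 to 47.5) in WT, 8.97 CPM (4.78 to 15.3) in DTR and 251 CPM (222 to 283) in B6, ratios of 0.251 (0.125 to 0.472) and 7.03 (5.14 to 9.81). Among thinned endothelial-gated cells 5.41%, 2.68% and 32.7% held it, with 8025, 8442 and 7773 UMIs as median depth, while macrophage-gated cells held 1, 1 and 0 *Timp4* UMIs in all. Summed mural markers stood at 297, 595 and 1483 CPM in the same endothelial-gated cells, and their part in the *Timp4* values was not tested. Mural-gated cells held 9.58, 5.66 and 3.499 CPM of *Timp4*. The *Timp1* level in endothelial-gated cells was 51.7, 43.5 and 22.7 CPM and that of *Timp2* 349.6, 393 and 191 CPM.

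In Schwann-gated cells *Mmp15*, a membrane-type MMP gene, was at 51.1 CPM (32.0 to 77.3) in WT, 50.0 CPM (30.5 to 77.2) in DTR and 60.0 CPM (38.0 to 90.02) in B6, a level it reached in no other class compared. *Mmp17* was at 23.2, 37.5 and 23.5 CPM, from 10, 15 and 9 UMIs, and *Mmp16* at 30.2, 35.0 and 13.04 CPM, from 13, 14 and 5 UMIs. *Reck* was at 74.3, 72.5 and 47.0 CPM and *Timp3* at 1304, 1042 and 944 CPM. The other genes with 20 CPM in a class reached it narrowly: *Mmp23* was at 22.6 CPM and *Adamts15* at 23.9 CPM in mural-gated cells of DTR, *Adamts8* at 20.03 CPM in those of WT, and *Adamts10* at 25.4 CPM in T cells of WT and 20.6 CPM in those of DTR. Among the 14, 28 and 27 monocyte-gated and dendritic-gated cells, *Mmp12* was at 22.3, 113 and 56.5 CPM and *Mmp19* at 116, 38.1 and 70.1 CPM, both above the macrophage-gated level in each library.

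Genes that act with these enzymes were counted in the same way. Of all genes, 3.01% were at least 2-fold higher and 1.73% lower in tenocyte-gated cells of DTR, and 3.46% and 3.61% in those of B6. These shares belong beside the counts of every list below for this class. No other setting, split by sex or matched cluster mix was run for these lists. Among the plasminogen system genes at least 2-fold higher in tenocyte-gated cells of DTR was the protease nexin gene *Serpine2* (265 CPM in WT and 666 in DTR), and in B6 the urokinase gene *Plau* was at least 2-fold higher (179.6 CPM in WT and 482 in B6). Of 6 cathepsin and cystatin genes, 1 was higher in DTR, *Ctsk* for the collagen-cutting cathepsin K (198 CPM in WT and 471 in DTR), and 0 in B6. Of 9 genes for activation and clearance, *Thbs1* (419.9 CPM in WT and 904 in DTR) was at least 2-fold higher in DTR and 0 in B6.

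In the list of proteoglycan substrates of ADAMTS enzymes and link proteins, 3 genes were over 5 CPM in tenocyte-gated cells. Of these, *Acan* (9.12 CPM in WT and 32.0 in DTR) and the link protein gene *Hapln1* (5.46 CPM in WT and 23.5 in DTR) were at least 2-fold higher in DTR. In B6 all 3 were at least 2-fold lower, the versican gene *Vcan* with 311 CPM in WT and 71.4 in B6. *Vcan* is among the leading genes of cluster 2, which made up 30.4% of tenocyte-gated cells in WT, 23.3% in DTR and 14.4% in B6. The part of this cluster in the *Vcan* values was not tested.

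In the other lists few genes passed 2-fold. Of 6 ADAM genes, *Adam23*, whose product lacks a working protease site, alone was higher in tenocyte-gated cells of DTR and of B6, under 20 CPM in each, and *Adam17* was at 62.8, 43.9 and 44.6 CPM. Of the ADAMTS-like genes and papilin, 1 of 3 was higher in DTR and 2 of 4 in B6, each under 20 CPM. Of MMP and ADAMTS genes outside the 34, 2 of 12 reached 5 CPM, the procollagen protease gene *Adamts2* at 175, 195 and 152 CPM, and *Mmp25*, past 2-fold higher in DTR, with 4.13 CPM in WT and 8.37 in DTR. *Mmp1a* was not analysed here. Of these lists, that of proteoglycan substrates and link proteins in B6 was the only one with a gene at least 2-fold lower in tenocyte-gated cells.

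Of all genes, 0.574% were at least 2-fold higher and 1.71% lower in epitenon-gated cells of DTR, and 1.97% and 2.17% in those of B6. For macrophage-gated cells these shares were 1.25% and 1.29% in DTR, and 3.91% and 3.19% in B6. In epitenon-gated cells *Plau* was the 1 of 6 plasminogen system genes at least 2-fold lower in DTR (320.4 CPM in WT and 159 in DTR). Of 9 activation and clearance genes, *Thbs1* (407 CPM in WT and 139 in DTR) and *Spock2*, a testican gene, were lower in DTR, and *Spock2* was higher in B6 (6.82 CPM in WT and 15.2 in B6). In macrophage-gated cells of DTR *Ctsk* was higher (103 CPM in WT and 209.9 in DTR) and *Thbs1* lower (23.0 CPM in WT and 8.85 in DTR). In those of B6, *Mmp25*, *Adam8*, *Plat* and *Thbs2* were at least 2-fold lower and *Serpinf2* higher, of which *Adam8* (21.7 CPM in WT and 9.89 in B6) and *Plat* (26.1 CPM in WT and 6.49 in B6) were over 20 CPM.

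Immediate early genes, which respond to tissue handling and many of which encode AP-1 subunits, summed to 7255, 10973 and 13166 CPM in tenocyte-gated cells, 9933, 10988 and 15626 CPM in epitenon-gated cells and 11409, 12445 and 9414 CPM in macrophage-gated cells of WT, DTR and B6. In tenocyte-gated cells 0 of 12 were at least 2-fold higher in DTR and 2 in B6, *Fos* (1229.6 CPM in WT and 3480.5 in B6) and *Atf3* (694 CPM in WT and 1603 in B6). In epitenon-gated cells 0 of 12 were higher in DTR and 3 in B6, and in macrophage-gated cells 0 in both, with 1 lower in B6. The shares of all genes given above for each class belong beside these counts. The part of the immediate early genes in the levels of *Mmp3* and its neighbours was not tested.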

How the data were processed

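The authors pooled the FDL tendons of each group, made 10x Genomics 3′ libraries and deposited for each library the Cell Ranger matrix of UMI counts (version 6.0.1 in the file header, 2.1.1 in the labels), not normalised. The genome build was not given in the sources used here. From these counts, barcodes were kept as cells where 1000 to 5000 genes were seen and mitochondrial UMIs did not pass 10%. A cell joined the tenocyte or macrophage class with at least 4 of 6 markers (*Tnmd*, *Fmod*, *Cilp2*, *Fibin*, *Thbs4*, *Mkx*; *C1qa*, *C1qb*, *C1qc*, *Pf4*, *Csf1r*, *Adgre1*) and another class with at least 3 of its markers (*Pi16*, *Efemp1*, *Krtdap*, *Ccn3*, *Dpp4*, *Clec3b* for epitenon; *Pecam1*, *Cdh5*, *Cldn5*, *Egfl7*, *Emcn*, *Selp* for endothelial; *Rgs5*, *Myh11*, *Notch3*, *Kcnj8*, *Cspg4*, *Actg2* for mural), provided that it passed no other gate. These limits were set after the marker counts had been seen.

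Sums of UMIs were compared as CPM, and a ratio needed 5 CPM in 1 of the 2 libraries to enter a count. A fold against 0 used a floor of 3 UMIs. The genes and lists were chosen with earlier results of these data known. Genes with at least 20 CPM in a class comparison are given with values, the others by counts, and context lists by counts, medians and up to 4 examples. The values of 1 context list gene are not reported here. Clusters used scanpy 1.11.5 (2000 variable genes without the 34, 20 principal components, 20 neighbours, leidenalg 0.10.2 at resolution 0.5). TMM factors came from edgeR 4.0.16 in R 4.3.3, intervals from scipy 1.17.1. Scrublet marked 1, 6 and 1 cells as doublets, too few to have worked, so no cell was removed for the values reported. The ratio script was tested on simulated data. Of 15 other settings tried, 12 were planned and 3 (removal of the highest doublet scores, inclusion of cells of several gates, and the matched cluster mix) were chosen after seeing the data.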

Additional observations from a re-analysis of the deposited data

Results flagged for a closer look

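Sex was called for each cell from *Xist* and Y-linked UMIs, and 9 ratios to 6 M WT lay on opposite sides of 1 in female and male cells beyond their counting intervals. The pools had no replicate, so the difference between the sexes was not tested. In 6 M DTR tenocyte-gated cells the female and male ratios were 0.605 and 1.55 for *Mmp3*, and 0.524 and 47.0 for *Mmp12*, whose male level in 6 M WT came from 7 UMIs. In 6 M DTR epitenon-gated cells they were 0.872 and 1.32 for *Mmp2*, and 0.783 and 1.58 for *Mmp19*. In 6 M DTR macrophage-gated cells they were 0.488 and 4.47 for *Mmp13*, 0.548 and 2.71 for *Mmp19*, and 0.612 and 1.79 for *Timp1*. In 21 M B6 tenocyte-gated cells they were 1.26 and 0.931 for *Timp1*, and 1.27 and 0.826 for *Timp3*.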

How the results depend on the processing

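Counts of the 34 genes past 2-fold in tenocyte-gated, epitenon-gated and macrophage-gated cells were recomputed under 15 other settings. The matched cluster mix was used for tenocyte-gated and epitenon-gated cells only. Of the recomputed counts, 124 of 176 were within 1.5 times of those reported. Those that were not are given here as the reported count and then the other. The share of all genes past 2-fold is not given for these settings, so the counts cannot be set beside it. In tenocyte-gated cells of 6 M DTR the higher genes went from 4 to 8 at a minimum of 1 CPM, 9 in male cells and 2 with the cluster mix matched. The lower went from 1 to 2 with classes from clusters, thinned cells, cells weighted equally and the highest 6% of doublet scores removed, to 3 at 1 CPM, 0 at 20 CPM and 4 with the mix matched. In 21 M B6 the higher genes went from 5 to 3 with thinned cells and with the mix matched and to 2 at 20 CPM, and the lower from 0 to 1 with classes from clusters, a stricter gate, thinned or equally weighted cells, a minimum of 1 CPM and doublet scores removed, and to 2 with the mix matched.

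In epitenon-gated cells of 6 M DTR the higher genes went from 0 to 1 in male cells, and the lower from 3 to 1 at 20 CPM and 5 in female cells. In 21 M B6 the higher went from 0 to 1 with no upper gene limit and in female cells, 2 in male cells and 3 with TMM scaling, and the lower from 2 to 5 at 1 CPM. In macrophage-gated cells of 6 M DTR the higher went from 1 to 0 with thinned or equally weighted cells, at 20 CPM and in female cells, to 2 with no upper gene limit, doublet scores removed and cells of several gates, and to 6 in male cells. The lower went from 1 to 0 with no upper gene limit and at 20 CPM, and to 2 with a stricter gate, thinned cells, female cells, doublet scores removed and several gates. In 21 M B6 the higher went from 2 to 1 at a 5% mitochondrial limit, with thinned cells and in female cells, and to 4 at 1 CPM and in male cells, and the lower from 4 to 1 at 5% mitochondrial UMIs, at 20 CPM and in male cells, and to 2 with several gates. The causes were not tested, apart from the CPM minimum, which sets how many genes enter.

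Of single genes past 2-fold, 4 log2 ratios turned in direction: *Mmp14* of 6 M DTR tenocyte-gated cells with the mix matched (−0.13), and in 21 M B6 macrophage-gated cells *Mmp14* in male cells (0.0189) and *Mmp12* in male cells (3.53) and with several gates (0.0614). TMM scaling moved the median log2 ratio of all genes from −0.28 to −0.04 in 21 M B6 tenocyte-gated and from −0.27 to 0.03 in 21 M B6 epitenon-gated cells, and from 0.04 to −0.07 in 6 M DTR tenocyte-gated cells. No paired analysis was possible because each group is 1 pooled library. With 1 library a group, counting error is the only error known, and levels from under 10 cells rest on those cells.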
